A study of Mus musculus with 10 samples.

Results

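The pre-B-cell receptor genes Blnk, Igll1 and Vpreb1 were examined for DNA copy number in mouse leukemias of the BCR-ABL1 type, named for the fused kinase they carry. Array comparative genomic hybridisation set the DNA of 10 leukemias, 5 Ikzf1+/- and 5 Ikzf1+/+, against DNA of non-leukemic bone marrow, with tumour DNA in Cy5 and non-leukemic DNA in Cy3 on every array. The gene Ikzf1 encodes the lymphoid transcription factor Ikaros, and Ikzf1+/- tumours carry 1 altered allele of it. By the labels, the DNA of both groups came from GFP-positive leukemic cells of the marrow of wild-type or Ikzf1-altered mice. The series title gives the leukemia as BCR-ABL1 positive without setting the genotypes apart. The labels call the non-leukemic marrow stage-matched, and the series' design text calls it B220-positive B cells. How BCR-ABL1 was introduced, animal age, the number of animals and the origin of the non-leukemic pool are not given in the sources used here, so the spread between arrays may in part be technical. Members were all placed probes that were not controls within chr19:40980000-41090000 for Blnk and within chr16:16845000-16885000 for Igll1 and Vpreb1 (mm9), which gave 164 of 402346 probes, 21 in the first and 143 in the second window. Gene bodies were taken as chr19:41003000-41069000 for Blnk (13 probes), chr16:16860600-16864800 for Igll1 (20 probes) and chr16:16868000-16869000 for Vpreb1 (3 probes), and all other probes of a window, 8 and 120, counted as flanks. These limits are approximate, and mm9 gene models were not used here, so which probes lie in exons, introns or untranslated regions was not determined.

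The pre-B-cell receptor is the first antigen receptor form of the B lineage. An immunoglobulin heavy chain pairs in it with a surrogate light chain, which Vpreb1 (the variable-like part) and Igll1 (the constant-like part) encode, and Cd79a and Cd79b carry its signal inward. The kinase Syk then phosphorylates the adaptor Blnk, which brings Btk and Plcg2 together, and the signal both drives a burst of division and ends it by letting light chain genes rearrange. In mouse, Ikaros is known to take part in silencing Igll1 and Vpreb1 as pre-B cells mature, and loss of Blnk is known to favour pre-B leukemia. In the GRCm38 gene table Igll1 and Vpreb1 are neighbours on chromosome 16, and Blnk lies next to Dntt, which encodes the template-independent polymerase of V(D)J recombination, on chromosome 19.

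The promoters of the 3 genes are shown as background. In each gene the probes called raised below had their highest mean in Ikzf1+/- tumour 2 and Ikzf1+/+ tumour 1 of the 2 genotypes. The order of the other tumours differed between the genes, and a link of the promoters to the ratios was not tested. The sequences are RefSeq's, of GRCm38.p6, each 300 bases around the start of the gene, all on the minus strand, at chr19:40994172-40994471 for Blnk, chr16:16863936-16864235 for Igll1 and chr16:16869206-16869505 for Vpreb1; positions of this build are not those of the mm9 probes. Capitals mark E-boxes (CANNTG), the motif class bound by E proteins such as Tcf3.
Blnk: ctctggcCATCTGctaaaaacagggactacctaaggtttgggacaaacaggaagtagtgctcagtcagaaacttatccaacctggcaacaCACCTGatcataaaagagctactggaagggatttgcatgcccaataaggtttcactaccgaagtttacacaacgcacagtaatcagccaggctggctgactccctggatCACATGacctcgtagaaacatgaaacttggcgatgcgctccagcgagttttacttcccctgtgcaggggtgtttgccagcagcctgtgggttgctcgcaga
Igll1: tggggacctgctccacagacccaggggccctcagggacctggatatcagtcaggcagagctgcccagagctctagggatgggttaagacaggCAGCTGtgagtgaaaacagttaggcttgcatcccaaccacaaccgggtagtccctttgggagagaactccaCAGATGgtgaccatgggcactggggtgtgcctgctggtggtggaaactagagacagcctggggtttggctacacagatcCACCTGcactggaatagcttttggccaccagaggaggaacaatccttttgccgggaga
Vpreb1: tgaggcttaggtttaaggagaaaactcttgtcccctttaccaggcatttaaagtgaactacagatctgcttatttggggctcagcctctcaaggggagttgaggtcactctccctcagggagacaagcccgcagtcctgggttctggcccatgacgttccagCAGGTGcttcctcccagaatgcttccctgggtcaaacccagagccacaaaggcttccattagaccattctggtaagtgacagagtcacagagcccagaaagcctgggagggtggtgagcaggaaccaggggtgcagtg
The E-box was matched 3 times in Blnk, 3 times in Igll1 and 1 time in Vpreb1, and 72.3% of 32851 promoters of this length hold at least 1. The core GGGAA, bound by Ikaros, was matched on either strand 1 time in Blnk, 0 times in Igll1 and 1 time in Vpreb1, against 62.7% of promoters with a match. Vpreb1 has a close copy, Vpreb2, on the same chromosome: over 156 bases where both promoter entries could be laid side by side without gaps, 153 were identical, with a longest identical run of 91. Vpreb1 body probes are 45 to 57 bases long, and whether they also match Vpreb2 was not determined.

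Values are log2 ratios of tumour to non-leukemic DNA, centred on each array's autosomal median, so that 0 means the usual 2 copies and 3 copies in every cell would give +0.58. The genes were picked for their ratios on these 10 arrays, so the values at the members are given as a description. Calls from the fit over all autosomal runs are counted further on beside their share in the genome, and nothing is supported with them. In the Ikzf1+/+ tumours, ratios across Igll1 stood high at a few probes and much lower at most probes between them, where the means ran from -0.018 to +0.60. Probes whose mean over the 10 tumours was at least 0.5 are called raised here, a limit chosen after the ratios were seen. Igll1 had 5 of 20 such probes, Vpreb1 2 of 3 and Blnk 4 of 13, or 11 of 36 body probes, and the flanks had 0 of 128. Over all autosomal probes 0.0988% reached this mean, but the rule chose the members on this contrast and nothing is read from the difference.

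The highest ratio of the 3 genes was in Igll1, at the probe chr16:16863981-16864030. It had +0.082, +0.63, +0.0033, +0.30 and +0.17 in Ikzf1+/- tumours 1 to 5, against +3.61, +2.05, +1.28, +2.36 and +1.73 in Ikzf1+/+ tumours 1 to 5. The groups did not overlap. In Ikzf1+/+ tumour 1 the ratio of Cy5 to Cy3 signal at this probe was 12.2 on the linear scale, and copies were not counted. Ikzf1+/- tumours averaged +0.24 ± 0.25 there and Ikzf1+/+ tumours +2.21 ± 0.88, a difference of -1.97 (here and below, ± is the SD over n = 5 tumours of a genotype). The next probe on either side, 59 and 114 bases away, had means of +0.11 and +0.024 in Ikzf1+/- and +0.38 and +0.24 in Ikzf1+/+ tumours.

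At the other end of the Igll1 body, 3 raised probes lay next to each other. The probe chr16:16860895-16860940 had +0.12, +0.37, +0.15, +0.038 and +0.48 in Ikzf1+/- tumours 1 to 5, against +2.82, +1.95, +1.20, +2.05 and +1.47 in Ikzf1+/+ tumours 1 to 5. The probe chr16:16861058-16861102 had +0.059, +0.48, +0.033, +0.23 and +0.12 in Ikzf1+/- tumours 1 to 5, against +2.49, +1.57, +1.06, +2.06 and +1.12 in Ikzf1+/+ tumours 1 to 5. At the third, chr16:16861161-16861207, the ratios were +0.038, +0.21, +0.18, +0.072 and -0.0037 in Ikzf1+/- tumours 1 to 5, against +1.92, +0.98, +0.63, +1.00 and +0.67 in Ikzf1+/+ tumours 1 to 5. The genotypes did not overlap at any of these, with means of +0.23 ± 0.18, +0.19 ± 0.18 and +0.099 ± 0.092 in Ikzf1+/- tumours and +1.90 ± 0.62, +1.66 ± 0.61 and +1.04 ± 0.52 in Ikzf1+/+ tumours. On the outer side the stretch ended within 101 bases, at a probe with -0.076 in Ikzf1+/- and -0.097 in Ikzf1+/+ tumours, and on the inner side within 177 bases, at one with -0.063 in Ikzf1+/- and -0.018 in Ikzf1+/+ tumours.

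A single raised probe stood between these ends, chr16:16862543-16862588. It had +0.098, +0.24, -0.11, +0.011 and +0.054 in Ikzf1+/- tumours 1 to 5, against +2.39, +1.35, +0.73, +1.72 and +0.95 in Ikzf1+/+ tumours 1 to 5. Its neighbours, 84 and 184 bases away, averaged +0.030 and +0.066 in Ikzf1+/- and +0.088 and +0.28 in Ikzf1+/+ tumours. The other 15 Igll1 body probes averaged +0.055 ± 0.038 in Ikzf1+/- and +0.18 ± 0.080 in Ikzf1+/+ tumours, and there the groups overlapped. Of these 15, the probes starting at 16863699 and 16863877 came closest to the limit, with -0.022 and +0.11 in Ikzf1+/- and +0.60 and +0.38 in Ikzf1+/+ tumours.

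At Vpreb1 both raised probes were in the upper part of the body. The probe chr16:16868509-16868554 had -0.19, +0.46, -0.11, +0.016 and +0.16 in Ikzf1+/- tumours 1 to 5, against +2.96, +1.54, +1.34, +1.04 and +1.28 in Ikzf1+/+ tumours 1 to 5. The probe chr16:16868771-16868815 had -0.16, +0.32, -0.042, -0.089 and +0.050 in Ikzf1+/- tumours 1 to 5, against +2.82, +1.28, +1.14, +1.15 and +1.27 in Ikzf1+/+ tumours 1 to 5. The groups did not overlap at either, and the Ikzf1+/- tumours lay on both sides of 0. The means over both probes were +0.040 ± 0.22 in Ikzf1+/- and +1.58 ± 0.74 in Ikzf1+/+ tumours. The third body probe, starting at 16868066, averaged -0.16 ± 0.074 in Ikzf1+/- and -0.021 ± 0.17 in Ikzf1+/+ tumours.

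The approximate upper limit of Vpreb1 cut through the high stretch. The first probes outside it, starting at 16869018 and 16869297, count as flank here but averaged +0.025 and +0.020 in Ikzf1+/- and +0.71 and +0.76 in Ikzf1+/+ tumours, with no overlap between groups at either. The next probe that was well above background and unsaturated in both dyes on all 10 arrays, starting at 16870382, averaged +0.011 in Ikzf1+/- and -0.048 in Ikzf1+/+ tumours. With the body widened by 1 kb at each end, the difference between genotypes in Vpreb1 body minus flanks was -0.57 in place of -1.05. The outermost Igll1 body probe at the upper limit, starting at 16864496, averaged +0.20 in Ikzf1+/- and +0.11 in Ikzf1+/+ tumours.

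Blnk is covered by 13 probes over 66 kb, against 20 over 4.2 kb for Igll1, so its profile is coarser. Its raised probes were chr19:41003657-41003716, chr19:41008910-41008969, chr19:41026882-41026941 and chr19:41047077-41047136, separated by probes that were not raised except between the first pair. The probe chr19:41008910-41008969 had +0.096, +0.42, +0.17, -0.14 and +0.13 in Ikzf1+/- tumours 1 to 5, against +2.71, +0.91, +0.69, +1.14 and +1.44 in Ikzf1+/+ tumours 1 to 5. The probe chr19:41047077-41047136 had +0.16, +0.70, +0.062, -0.047 and +0.24 in Ikzf1+/- tumours 1 to 5, against +2.16, +1.34, +0.83, +1.33 and +1.11 in Ikzf1+/+ tumours 1 to 5. The groups did not overlap at either. At the lower limit of the body, chr19:41003657-41003716 had -0.11, +0.34, +0.086, +0.20 and +0.33 in Ikzf1+/- tumours 1 to 5, against +2.28, +0.97, +0.38, +0.93 and +1.03 in Ikzf1+/+ tumours 1 to 5. Ratios at chr19:41026882-41026941 were +0.13, +0.47, +0.042, +0.057 and +0.47 in Ikzf1+/- tumours 1 to 5, against +2.38, +0.73, +0.56, +1.21 and +1.11 in Ikzf1+/+ tumours 1 to 5. The genotypes again did not overlap at either, but came close at the first, with +0.34 in Ikzf1+/- tumour 2 against +0.38 in Ikzf1+/+ tumour 3. The means were +0.17 ± 0.19 and +0.23 ± 0.22 in Ikzf1+/- tumours and +1.12 ± 0.70 and +1.20 ± 0.71 in Ikzf1+/+ tumours.

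The 9 other Blnk body probes averaged +0.055 ± 0.20 in Ikzf1+/- and +0.27 ± 0.13 in Ikzf1+/+ tumours, with overlap. Chromosome 19 as a whole had medians of +0.19 in Ikzf1+/- tumour 5 and +0.22 in Ikzf1+/+ tumour 5, and between -0.022 and +0.017 in the other 8. Relative to the flanks, which share that level, the other body probes stood at -0.0077 ± 0.077 in Ikzf1+/- and +0.22 ± 0.10 in Ikzf1+/+ tumours, and these groups did not overlap. At Igll1 the same measure was +0.079 ± 0.045 in Ikzf1+/- and +0.18 ± 0.064 in Ikzf1+/+ tumours, with overlap, and the difference between the genes was not tested. At Blnk the groups came close, with +0.11 in Ikzf1+/- tumour 5 against +0.13 in Ikzf1+/+ tumour 4. The 8 Blnk flank probes themselves averaged +0.16 and -0.12 in Ikzf1+/+ tumours 1 and 2. How often other stretches of the genome separate by this measure was not determined, so nothing is read from it. The first flank probes outside the body, starting at 40993606 and 41076130, averaged -0.18 and -0.077 in Ikzf1+/- and +0.015 and -0.050 in Ikzf1+/+ tumours.

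Whole bodies were next set against their flanks. For Blnk, body minus flanks was -0.013, +0.15, -0.010, -0.043 and +0.086 in Ikzf1+/- tumours 1 to 5, against +0.83, +0.61, +0.30, +0.44 and +0.46 in Ikzf1+/+ tumours 1 to 5. For Igll1 it was +0.049, +0.16, +0.13, +0.070 and +0.12 in the Ikzf1+/- tumours, against +0.84, +0.50, +0.32, +0.59 and +0.47 in the Ikzf1+/+ tumours. For Vpreb1 it was -0.13, +0.22, -0.042, -0.086 and +0.026 in the Ikzf1+/- tumours, against +1.97, +0.90, +0.79, +0.74 and +0.82 in the Ikzf1+/+ tumours. All 5 Ikzf1+/- tumours lay below all 5 Ikzf1+/+ tumours for each gene. Without the raised probes the groups overlapped for Igll1 and Vpreb1, but not for Blnk. The genes were picked on these ratios, and the share of like stretches over the genome was not determined, so this is a description. The differences, Ikzf1+/- minus Ikzf1+/+, were -0.50 for Blnk, -0.44 for Igll1 and -1.05 for Vpreb1.

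The flanks themselves lay close to 0 in both genotypes. They averaged +0.063 ± 0.12 in Ikzf1+/- and +0.044 ± 0.13 in Ikzf1+/+ tumours at Blnk, and -0.025 ± 0.0095 in Ikzf1+/- and +0.0039 ± 0.028 in Ikzf1+/+ tumours in the window of Igll1 and Vpreb1. In 5 kb steps across that window, the genotypes overlapped in 6 of 8 steps, and the exceptions were those holding the bodies. In 10 kb steps across the Blnk window, they did not overlap in the steps starting at 41000000 and 41040000. They overlapped in all others, also in those within the Blnk body, as at 41020000, with +0.19 in Ikzf1+/- and +0.75 in Ikzf1+/+ tumours. In both windows the steps without overlap hold raised probes, which were chosen on these ratios. The share of such steps over the genome was not determined, so nothing is read from where they lie. Slides were told apart by a number in the name of each deposited scan, not by the labels. Of the 5 slides, 4 held 1 genotype each, so slide and genotype can hardly be told apart. On the slide that carried both, with 1 array of each and so no replicate, Ikzf1+/- tumour 1 minus Ikzf1+/+ tumour 5 was -0.47, -0.43 and -0.95 for body minus flanks of Blnk, Igll1 and Vpreb1. Without the raised probes the means for body minus flanks of the 3 genes were -0.0077, +0.079 and -0.14 in Ikzf1+/- tumours, against +0.22, +0.18 and -0.025 in Ikzf1+/+ tumours.

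Over the 11 raised probes of the 3 genes, the highest tumour of each genotype was nearly always the same, while the order of the others varied more. Among Ikzf1+/- tumours, tumour 2 was the highest at 10 of 11, and it was the only one above +0.5 at any of them, with +0.21 to +0.70. Among Ikzf1+/+ tumours, tumour 1 was the highest at 11 of 11 and tumour 3 the lowest at 10 of 11. The medians over the 11 probes were +0.082, +0.42, +0.042, +0.038 and +0.16 in Ikzf1+/- tumours 1 to 5, against +2.49, +1.34, +0.83, +1.21 and +1.12 in Ikzf1+/+ tumours 1 to 5. The genes lie on 2 chromosomes, and probes of 1 gene are not independent of each other. Of 378 autosomal probes with a mean of at least 0.5, Ikzf1+/+ tumour 1 was the highest of its genotype at 159. That share was not determined for the other tumours, so nothing is read from these counts.

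The 2 dyes were then read apart, each as background-subtracted signal divided by its array's autosomal median and compared for the same probe between genotypes. At the 11 raised probes the tumour signal in Cy5 was lower in Ikzf1+/- than in Ikzf1+/+ arrays, by -2.15 to -0.97 on the log2 scale with a median of -1.58, and the groups did not overlap at 10 of 11. The limit of 0.5 was passed through the Ikzf1+/+ tumours, so a lower ratio in Ikzf1+/- tumours at these probes was fixed by their choice, and the dyes only show in which channel it lay. The non-leukemic signal in Cy3 differed by -0.19 to +0.054 at the same probes, and overlapped at 11 of 11. At the Igll1 probe chr16:16863981-16864030 the Cy5 signal was 2.46 ± 0.35 array medians in Ikzf1+/- and 10.9 ± 6.89 in Ikzf1+/+ arrays, and the Cy3 signal 1.91 ± 0.10 in Ikzf1+/- and 1.88 ± 0.085 in Ikzf1+/+ arrays. At the other 25 body probes the Cy5 differences ran from -0.46 to +0.25 and the Cy3 differences from -0.15 to +0.19, with 0 of 25 free of overlap in either dye. The share of all autosomal probes free of overlap in a single dye is not given here, so nothing is read from these counts.

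The overall brightness of tumour DNA differed between the genotypes. The median Cy5 signal of the autosomal probes was 220 ± 10.1 in Ikzf1+/- and 121 ± 33.9 in Ikzf1+/+ arrays, and that of Cy3 was 163 ± 8.31 in Ikzf1+/- and 177 ± 5.82 in Ikzf1+/+ arrays. The Cy5 medians ran from 203 to 230 in Ikzf1+/- and from 89.4 to 160 in Ikzf1+/+ arrays, without overlap. Within Ikzf1+/-, the order did not follow brightness: tumour 2, the highest at 10 of 11 raised probes, had a Cy5 median of 221, and tumour 5, with a median ratio of +0.16, the lowest at 203. Within Ikzf1+/+, the Cy5 medians were 89.4, 94.1, 160, 108 and 155 in tumours 1 to 5. The median ratios over the raised probes ran exactly opposite, at +2.49, +1.34, +0.83, +1.21 and +1.12. Tumour 1 thus had the lowest Cy5 median and the highest ratio, and tumour 3 the reverse. The SD of probe noise was 0.18 ± 0.0097 in Ikzf1+/- and 0.21 ± 0.015 in Ikzf1+/+ arrays. The part of brightness and noise in the ratios of the members was not tested.

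The members were placed among all autosomal probes. The genotypes did not overlap, with Ikzf1+/- lower, at 4 of 13 Blnk, 8 of 20 Igll1 and 2 of 3 Vpreb1 body probes, against 1.05% of all autosomal probes. They did not overlap with Ikzf1+/- higher at 0 of 36 body probes, against 0.763%. Of the 14 body probes lower without overlap, 11 were the raised ones. Those passed their limit through the Ikzf1+/+ tumours, so a lower Ikzf1+/- ratio was fixed by that choice. Among the other body probes, 3 of 25 were lower without overlap. The genes were picked on these ratios, so these counts describe them and support nothing. In the flanks Ikzf1+/- was lower without overlap at 0 of 8 probes for Blnk and at 3 of 120 for the other window, 2 of which are the probes just above the Vpreb1 limit. It was higher without overlap at 0 of 8 and 2 of 120 flank probes. High ratios of this kind were not particular to these genes: of 378 autosomal probes with a mean of at least 0.5, 290 had a lower mean in Ikzf1+/- tumours, 211 without overlap, and Ikzf1+/+ tumour 1 was the highest of its genotype at 159.

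In limma (lmFit and eBayes, Benjamini-Hochberg adjustment over 76491 autosomal runs of 5 consecutive probes at 0.05), runs that touch a body and were lower in Ikzf1+/- tumours numbered 0 of 3 for Blnk, 2 of 5 for Igll1 and 1 of 2 for Vpreb1, against 0.129% of all runs. At an unadjusted p under 0.05 they numbered 3, 4 and 1. Against 0 over all 10 tumours, 3 of 3, 3 of 5 and 0 of 2 runs were higher by limma, or 3, 5 and 1 unadjusted, against 3.33% of all runs. The members were chosen on these ratios, so the counts describe them and support nothing. The run differences between genotypes lay between -0.49 and -0.38 for Blnk, -0.60 and +0.066 for Igll1 and -0.96 and -0.075 for Vpreb1.

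Runs of 5 probes elsewhere in the genome with the pattern most like each body were found by the root mean square difference of their log2 ratios over the 10 tumours. The run chr1:88237296-88254121 was the most like both Blnk and Igll1, at 0.12 and 0.075, with +0.092 ± 0.063 in Ikzf1+/- and +0.55 ± 0.29 in Ikzf1+/+ tumours. Blnk was next most like chr19:45825003-45842284 (0.13), chr11:50101836-50122456 (0.14), chr6:99165887-99188336 (0.14) and chr2:156002402-156012825 (0.15). Igll1 was next most like chr13:84761105-84821413, chr11:51409611-51429106, chr2:103618189-103633586 and chr13:58492664-58502480, at 0.084 to 0.0997. Vpreb1 was most like chr1:180258855-180273479 (0.17), with +0.062 ± 0.056 in Ikzf1+/- and +1.05 ± 0.56 in Ikzf1+/+ tumours, followed at 0.29 to 0.33 by chr13:21807723-21809868, chr5:52548541-52570458, chr6:136878135-136890057 and chr4:44540771-44541973. Which genes these runs hold was not determined.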

How the data were processed

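Per the labels, genomic DNA was extracted with phenol and chloroform and 1.5 µg was labelled with a ULS kit, tumour in Cy5 and non-leukemic marrow in Cy3, with no dye swap. The deposited scanner files give each spot's intensity, background-subtracted and dye-normalised by the scanner software; per the file headers this was Feature Extraction 10.7.3.1 with a CGH lowess protocol and build mm9, and per the submitters' processing notes Agilent Feature Extraction 10.5.1.1. The deposited scanner log10 ratio matched Cy5 over Cy3 but for single spots (by up to 0.79 on the log2 scale), and the deposited series matrix holds the same ratio as log2 (slope 1.00 on every array), uncentred, with column medians of -0.0011, -0.0011, -0.0006, -0.0019 and -0.0030 for the Ikzf1+/- columns and -0.0104, -0.0100, -0.0194, -0.0114 and -0.0142 for those of Ikzf1+/+, by replicate number. Log2 of processed Cy5 over Cy3 was computed for 412783 spots without the control spots, 88 to 256 per array were dropped for an outlier mark by the scanner software, repeated spots of 1 probe were averaged, and arrays were centred on the median of 382487 autosomal probes. A probe belonged to a body where its centre lay in it.

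Runs of 5 autosomal probes were fitted with limma 3.58.1 (R 4.3.3; Python 3.11.15, numpy 2.4.6 and pandas 2.3.3 elsewhere). Tested on simulated data over 76491 runs, this genotype fit recovered 62%, 86%, 100% and 100% of differences of 0.3, 0.5, 1 and 1.5, with 7 false calls. The simulated noise was independent, with the same SD in both genotypes and no slide effect. In the data the SD over the Igll1 raised probes was 0.13 in Ikzf1+/- and 0.65 in Ikzf1+/+ tumours. Slide also nearly coincided with genotype, so these figures cannot be carried over to the data. Alternatives were normexp (offset 50) on spot medians, since the files give no spot means, loess, other ratios, filters, run lengths, slide and replicate blocks, and leaving out each tumour. The members, lists and motifs were chosen with earlier results of these data known; the 5 most like runs were taken outside 1 Mb of the windows. The files hold no gene column and the gene table is of GRCm38.p6, so the planned fit per gene, the pathway lists and bodies named by the files were not run. The number of arrays limits the precision.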

Additional observations from a re-analysis of the deposited data

Results flagged for a closer look

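Of 34 groups of 5 tumours examined for a value set apart from the others, 5 had one, and in each it was Ikzf1+/+ tumour 1; chance sets apart about 1 in 20 groups of unselected values, but these share probes and tumours and were chosen for high ratios, so that rate cannot be held against them and the values are a description. Vpreb1 body minus flanks was +1.97 in that tumour against +0.74 to +0.90 in the other Ikzf1+/+ tumours, and the mean of the Vpreb1 raised probes was +2.89 against at most +1.41. The Vpreb1 probes starting at 16868509 and 16868771 stood at +2.96 and +2.82, against +1.04 to +1.54 and +1.14 to +1.28. The Igll1 probe starting at 16861161 stood at +1.92, against +0.63 to +1.00. This tumour also had the lowest median Cy5 signal of the 10 arrays, 89.4, and its part in these values was not tested.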

How the results depend on the processing

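The sign of the difference between genotypes at the 3 genes was the same under every alternative run, for body minus flanks and for the raised probes. The genes and the raised probes were chosen on these ratios, so the kept sign is a description and supports nothing. Some alternatives hardly touched the members: for Blnk body minus flanks, scanner log ratios, marked spots kept and only probes well above background all left -0.50. Leaving out 1 tumour gave -0.55 to -0.42 for Blnk, -0.49 to -0.36 for Igll1 and -1.12 to -0.81 for Vpreb1 body minus flanks. With medians over probes the Ikzf1+/- minus Ikzf1+/+ differences were -0.27 for Blnk, -0.18 for Igll1 and -1.49 for Vpreb1, and the Ikzf1+/+ values +0.33 for Blnk and +0.27 for Igll1. Without the raised probes, an alternative chosen after seeing the data, the differences were -0.23, -0.098 and -0.11, and the Ikzf1+/+ values +0.22, +0.18 and -0.025, the last reversed in sign. With the Vpreb1 body widened by 1 kb the difference was -0.57. After normexp the Ikzf1+/- values were +0.18 for Igll1 body minus flanks and +0.40 and +0.31 for the raised probes of Igll1 and Vpreb1, and on the shared slide the first was +0.049. The replicate numbers did not pair the tumours (correlation of deviations over 0.1 for 1 of 5 numbers); with the replicate block 87 runs differed between genotypes, against 126 without it, and the member differences are equal by construction.

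Runs differing between genotypes numbered 1739 after normexp (1344 higher in Ikzf1+/-, against 27 of 126), 11 with medians, 198 and 25 with 3 and 10 probes per run, of which 37 and 13 were higher, and 231 with slide as a random block. Leaving out 1 tumour gave 11 to 350: 11, 24, 24, 19 and 22 without Ikzf1+/- tumours 1 to 5, and 59, 350, 61 and 60 without Ikzf1+/+ tumours 1, 3, 4 and 5. Runs differing from 0 numbered 5704, of which 2544 were higher, 9402 after normexp (6153 higher) and 3083 with medians. Leaving out 1 tumour gave 2243 to 6019, with 3624 without Ikzf1+/- tumour 4 and 2760 and 2243 without Ikzf1+/+ tumours 2 and 5. The cause of these changes was not tested. Gene bodies taken from a gene column of the files, and normexp on spot means, were not run, since the files used here hold neither.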
